A study of Mus musculus with 12 samples.

Results

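The 27 genes described here encode enzymes of cholesterol synthesis and targets or controllers of the sterol regulatory element-binding proteins (SREBP). They were taken by name from a table of 55891 genes, and each matched 1 row. They were chosen by function, but with earlier results of these data known. Their shares set beside those of all genes therefore describe the list and are not independent support. All 27 reached at least 1 TPM in at least 6 libraries and were tested among 12605 genes. By role they comprised 7 genes of the mevalonate steps, 3 of the squalene and lanosterol steps, 8 of the steps after lanosterol, 5 regulators, 1 sterol carrier and 3 genes of fatty acid synthesis and desaturation. The first 3 groups are called the 18 synthesis enzymes.

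Transcripts were measured by mRNA sequencing in mucosa scraped off the ileum (the distal small intestine) of mice, with 1 library per mouse. There were 6 mice labelled ERBB3-dIE and 6 labelled Erbb3-FF, sampled at baseline, that is without a treatment named in the labels. Litter A held 3 ERBB3-dIE and 4 Erbb3-FF mice, and litter B held 3 ERBB3-dIE and 2 Erbb3-FF mice. The product of Erbb3 is a receptor for neuregulins that belongs to the ErbB family. The sources used here leave unstated what segment was altered, by which driver, and the age, sex and strain of the mice. No other allele or agent is named for either genotype.

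Animal cells build cholesterol from acetyl-CoA through mevalonate, squalene and lanosterol. When sterols in the endoplasmic reticulum run low, SCAP carries the SREBP proteins to the Golgi, where they are cut and released to switch on most genes of this route, while INSIG proteins hold SCAP back when sterols are plentiful. SREBP-2, made from Srebf2, acts mainly on sterol genes, and SREBP-1c, made from Srebf1, mainly on fatty acid genes. The small intestine both makes cholesterol and absorbs it from the diet and bile.

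The promoters of 4 of the genes are shown because Msmo1 and Tm7sf2 passed the genotype test, Hmgcs1 holds the core letters of the sterol element known to be bound by SREBP, and Srebf2 encodes the regulator itself. Each run is the 250 bases before the start of the gene in RefSeq (build GRCm38.p6, while the expression table was made on GRCm39), read 5′ to 3′ on the strand of the gene. Msmo1 lies at chr8:64733579-64733828 on the minus strand, Tm7sf2 at chr19:6067851-6068100 on the minus strand, Hmgcs1 at chr13:119690101-119690350 on the plus strand and Srebf2 at chr15:82147019-82147268 on the plus strand. Capitals mark the letters of a sterol element core, TCACNCCAC or the same without its last base, and of the box CCAAT, bound by NF-Y, which reads ATTGG where it lies on the other strand.
Msmo1: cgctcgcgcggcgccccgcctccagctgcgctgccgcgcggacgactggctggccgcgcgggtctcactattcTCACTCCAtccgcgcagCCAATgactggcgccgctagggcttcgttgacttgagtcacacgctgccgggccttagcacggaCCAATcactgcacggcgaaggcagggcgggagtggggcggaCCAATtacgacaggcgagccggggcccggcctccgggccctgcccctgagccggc
Tm7sf2: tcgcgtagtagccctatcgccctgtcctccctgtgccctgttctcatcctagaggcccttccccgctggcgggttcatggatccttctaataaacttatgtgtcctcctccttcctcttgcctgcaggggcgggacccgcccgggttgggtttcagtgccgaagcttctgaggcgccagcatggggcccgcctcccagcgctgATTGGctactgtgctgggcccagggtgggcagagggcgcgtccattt
Hmgcs1: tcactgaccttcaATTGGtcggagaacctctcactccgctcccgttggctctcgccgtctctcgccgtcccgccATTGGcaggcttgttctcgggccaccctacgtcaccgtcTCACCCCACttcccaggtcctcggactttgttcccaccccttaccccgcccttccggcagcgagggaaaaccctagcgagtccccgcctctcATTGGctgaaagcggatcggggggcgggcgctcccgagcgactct
Srebf2: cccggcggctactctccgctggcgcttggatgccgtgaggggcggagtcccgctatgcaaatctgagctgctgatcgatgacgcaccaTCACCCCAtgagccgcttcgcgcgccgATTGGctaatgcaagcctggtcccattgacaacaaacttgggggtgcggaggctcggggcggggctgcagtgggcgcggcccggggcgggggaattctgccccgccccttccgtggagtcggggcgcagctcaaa
Both strands were searched, and the shorter sterol core overlaps the longer one by construction. A promoter entry was found for 22 of the 27 genes, which had 30 promoters. The core TCACNCCAC was present in Hmgcs1 alone among the 22 genes. That is 1 of the 30 promoters (3.33%), against 1.05% of all 32851 mouse promoters of this length. The shorter TCACNCCA was present in Hmgcs1, Msmo1 and Srebf2, 3 of the 30 promoters (10%), against 3.67% of all. Counts of 1 and 3 are too small to set these shares apart from those of all promoters. CCAAT was present in 20 of the 30 promoters (66.7%), against 33.8% of all. Tm7sf2 had 1 such box and neither form of the sterol core in this window. A match describes letters only.

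Several libraries stood apart before any comparison. Erbb3-FF mouse 3, labelled litter A, lay with litter B. Over the 1368 tested genes in which the other 6 litter A libraries and the 5 litter B libraries did not overlap, this library was nearer to the litter B mean in 1196 (87.4%). Its correlation over all tested genes was 0.921 to 0.948 with litter B libraries and 0.878 to 0.911 with the other litter A libraries. Its label was kept, and results that rest on it are given with and without it. Erbb3-FF mice 5 and 6 held 10.2% and 10.8% ribosomal sequence, against at most 1.62% in the other libraries. ERBB3-dIE mice 4 and 5 held the most smooth muscle transcript (summed markers 161 and 167 TPM, against 4.12 to 48.2 TPM in the others). Erbb3 itself had 104 to 206 TPM in ERBB3-dIE mice and 87.3 to 151 TPM in Erbb3-FF mice, so its gene-level value overlapped between the genotypes and does not check the labels. Epithelial and ileal markers (Epcam, Vil1, Cdh17, Krt20, Fabp6, Slc10a2) summed to 9596 to 40353 TPM in ERBB3-dIE mice and 13461 to 51549 TPM in Erbb3-FF mice, so the labelled tissue was present in every library. These markers also differed by genotype, as given with the other cell type markers.

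Most genes of cholesterol synthesis had lower fitted levels in ERBB3-dIE ileum, but 2 passed the test. Msmo1 and Tm7sf2, which act on sterols after lanosterol, fell in ERBB3-dIE mice (limma on log2(TPM + 0.5) with litter as a term, Benjamini-Hochberg adjusted p under 0.05 over all tested genes). They were 2 of 27 genes (7.41%), against a background of 3.70% of all tested genes called lower, and 0 of 27 were called higher, against a background of 1.66%. At an unadjusted p under 0.05, 15 of 27 genes were lower (55.6%), against 13.1% of all tested genes, and 0 were higher, against 8.71%. At an adjusted p under 0.1, 10 of 27 were lower, against 6.81%. The fitted difference was negative in 22 of 27 genes (81.5%), against 50.1% of all tested genes. The median log2 difference was -0.46 over the 27 genes and -0.52 over the 18 synthesis enzymes, of which 17 were negative, beside a median of -0.00066 over all tested genes. Fewer cells of a type and less RNA per cell cannot be told apart in such scrapings.

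**Figure D1:**
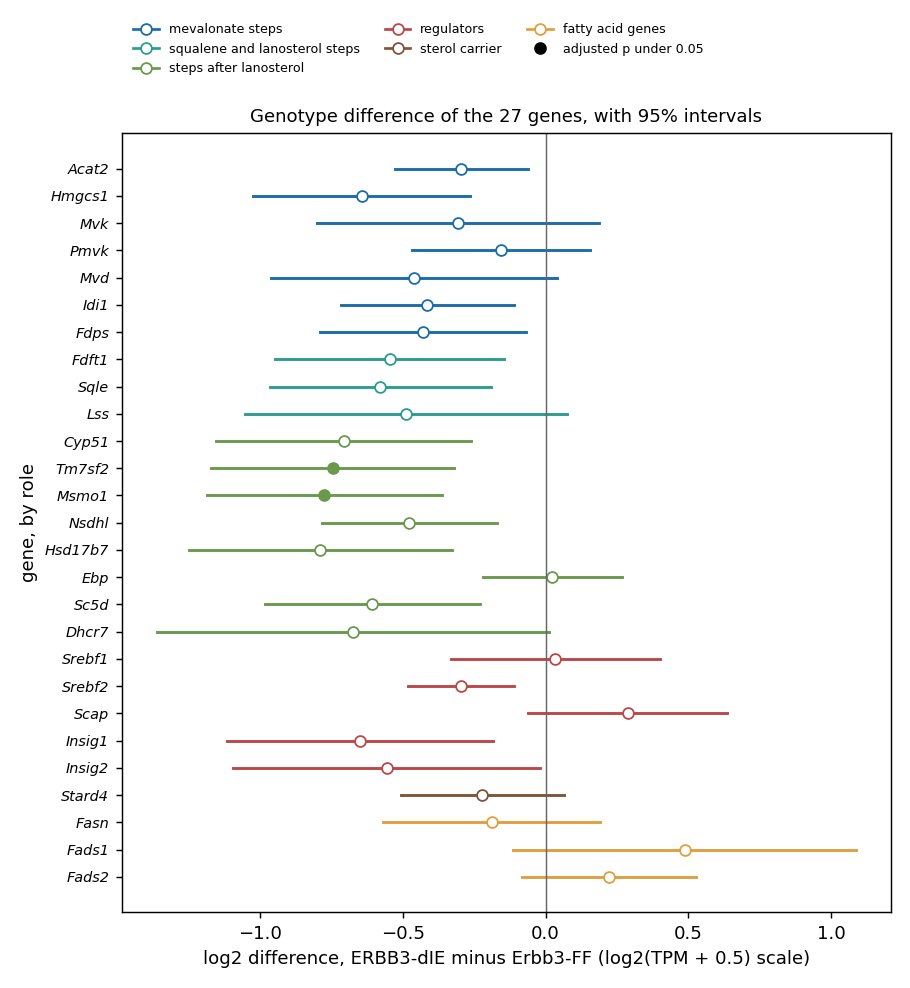
Fitted log2 difference (x axis, ERBB3-dIE minus Erbb3-FF on the log2(TPM + 0.5) scale) of the 27 genes in order of role (y axis), with litter as a term. Bars are 95% intervals and filled circles mark the 2 genes with adjusted p under 0.05; 17 of the 18 synthesis enzymes lie left of 0.

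The level of the route also varied between mice of 1 genotype. The summed level of the 18 synthesis enzymes was 1199, 809.7, 1105, 860.5, 838 and 1268 TPM in ERBB3-dIE mice 1 to 6, against 1425, 1536, 1845, 1191, 1175 and 1439 TPM in Erbb3-FF mice 1 to 6. The mean was 1013 ± 201 TPM in ERBB3-dIE mice and 1435 ± 247 TPM in Erbb3-FF mice (SD, n = 6 each), so ERBB3-dIE mice held 70.6% of the Erbb3-FF level. Among ERBB3-dIE mice, numbers 2, 4 and 5 were low, while 1 and 6 reached the lowest Erbb3-FF mice, and the genotypes overlapped. ERBB3-dIE mouse 2 had the lowest value of all 12 mice in 11 enzymes, mouse 5 in 5 and mouse 4 in 2. Erbb3-FF mouse 3 had the highest value in 13 of the 18 enzymes. Without it, the median difference was -0.37 over the 27 genes and -0.43 over the enzymes, and the same 2 genes were called. The count of genes called lower was 0 without ERBB3-dIE mouse 2, 4 or 5 or Erbb3-FF mouse 1, 2 or 6, 1 without ERBB3-dIE mouse 3 or Erbb3-FF mouse 4, 4 without Erbb3-FF mouse 5 and 5 without ERBB3-dIE mouse 6. In these fits the share of all tested genes called lower moved too, between 1.51% without ERBB3-dIE mouse 5 and 4.93% without Erbb3-FF mouse 5, and it was 2.55% without ERBB3-dIE mouse 6.

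**Figure D2:**
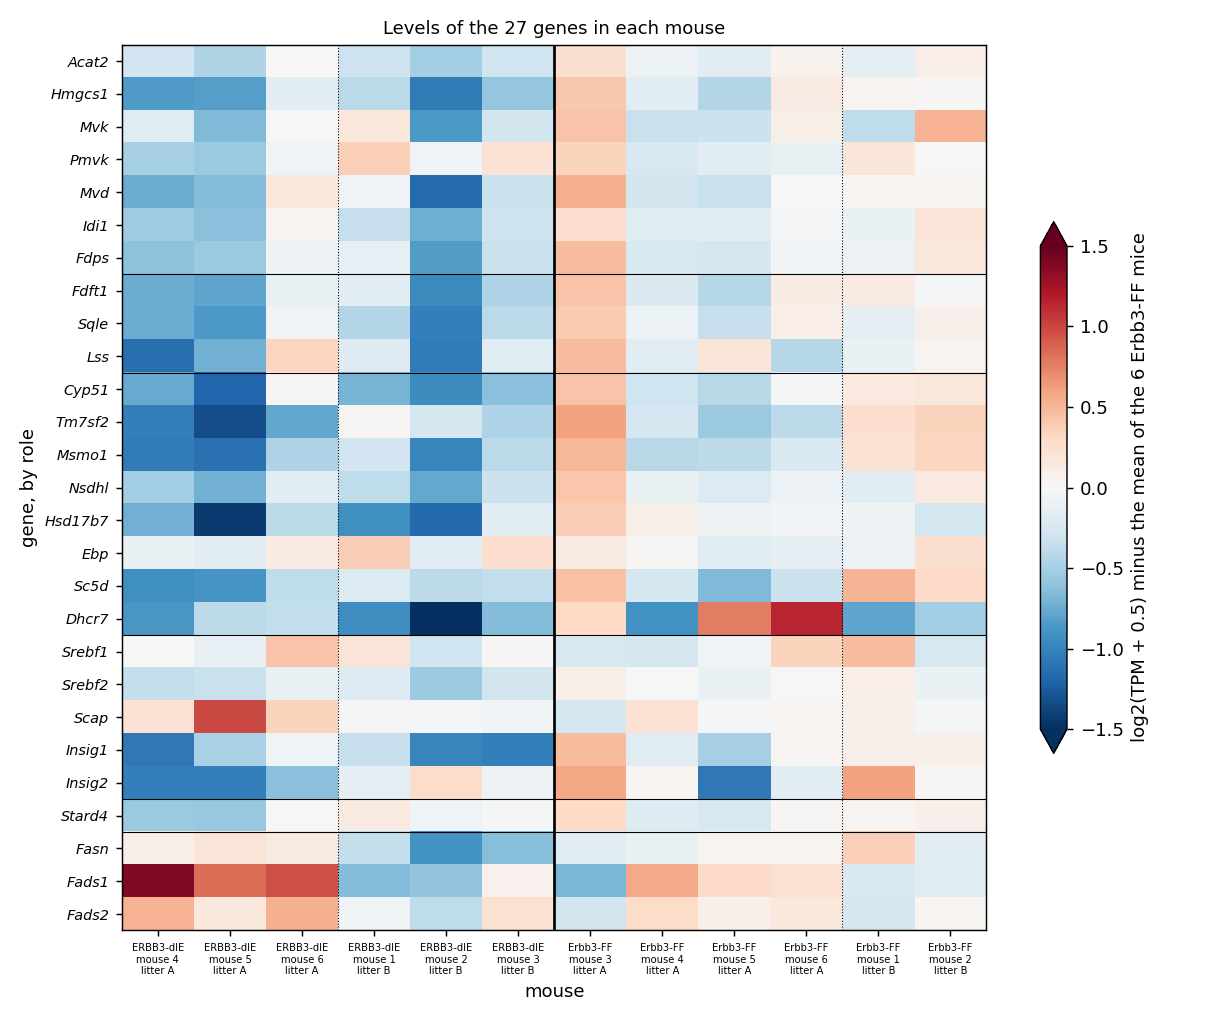
Level of each of the 27 genes (rows, by role) in each of the 12 mice (columns, ERBB3-dIE left of Erbb3-FF, litter A before litter B within each) as log2(TPM + 0.5) minus the mean of the 6 Erbb3-FF mice. ERBB3-dIE mice 2, 4 and 5 are blue over most enzymes, Erbb3-FF mouse 3 is red over most enzymes, and Dhcr7 is red in Erbb3-FF mice 5 and 6.

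The mevalonate steps turn acetyl-CoA into the isoprenoid units from which sterols are made. All 7 genes had negative differences, against 50.1% of all tested genes, with a median of -0.42. At an unadjusted limma p under 0.05, 4 were lower (57.1%, against 13.1%). The adjusted threshold was passed by 0 of 7, against 3.70% called lower. Hmgcs1, the cytosolic HMG-CoA synthase and the most abundant of the 7 per length, had 116, 148 and 214 TPM (lowest, median and highest) in ERBB3-dIE mice, against 178, 246 and 318 TPM in Erbb3-FF mice. All 6 ERBB3-dIE mice lay below the Erbb3-FF median and 4 lay below the lowest Erbb3-FF mouse, but the groups overlapped. Its log2 difference was -0.64 (SE 0.17, adjusted p = 0.0541), just outside the threshold. The other 6 had smaller differences. Acat2, the thiolase that joins acetyl-CoA units and which has a close paralog, Acat3, in the mouse, differed by -0.30 (SE 0.11, adjusted p = 0.131). Idi1, the isomerase of the isoprenoid unit, differed by -0.42 (SE 0.14, adjusted p = 0.106), and Fdps, which joins such units to farnesyl diphosphate, by -0.43 (SE 0.16, adjusted p = 0.157). Mvd, the decarboxylase of the route, had 13.9, 22.5 and 35.2 TPM in ERBB3-dIE mice and 24.9, 32.0 and 46.0 TPM in Erbb3-FF mice. Its interval ran from -0.96 to 0.04. The kinases Mvk (-0.31, SE 0.23) and Pmvk (-0.16, SE 0.14) had intervals that included 0, and Pmvk was the only one of the 7 whose difference was positive in litter B (0.09, SE 0.17).

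The squalene and lanosterol steps commit isoprenoids to sterols. Fdft1 (squalene synthase), Sqle (squalene epoxidase) and Lss (lanosterol synthase) all had negative differences, in each litter and over both. Of all tested genes, 31.8% were negative in each litter and 50.1% over both. The adjusted threshold was passed by 0 of 3, against 3.70% of all tested genes called lower. Sqle, which takes part in setting the pace of the route, had 41.9, 57.3 and 83.0 TPM in ERBB3-dIE mice and 67.4, 85.7 and 113 TPM in Erbb3-FF mice. Of the ERBB3-dIE mice 5 lay below the lowest Erbb3-FF mouse and mouse 6 lay within the Erbb3-FF range. The difference was -0.58 (SE 0.18, adjusted p = 0.0810). Fdft1 averaged 47.0 ± 11.5 TPM in ERBB3-dIE mice and 68.0 ± 13.9 TPM in Erbb3-FF mice (SD, n = 6 each), a log2 difference of -0.55 (SE 0.18, adjusted p = 0.108). Lss had the widest interval of the 3, with 10.3 to 29.1 TPM in ERBB3-dIE mice and 17.1 to 32.1 TPM in Erbb3-FF mice, and its interval ran from -1.05 to 0.07.

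The steps after lanosterol held both called genes and the largest differences. Of the 8 genes, 2 fell (25%, against 3.70% of all tested genes) and 7 had negative differences (87.5%, against 50.1%). At an unadjusted limma p under 0.05, 6 were lower (75%, against 13.1%). The median difference was -0.69. Msmo1, the methylsterol monooxygenase that starts removal of the methyl groups at carbon 4 of the sterol ring, had 81.0, 108 and 144 TPM in ERBB3-dIE mice and 131, 177 and 248 TPM in Erbb3-FF mice. Erbb3-FF mice 1, 2 and 3 were high, with 205, 219.6 and 248 TPM, and mice 4, 5 and 6 had 131, 134 and 149.9 TPM. Of the ERBB3-dIE mice 4 lay below all of these and the groups overlapped. The log2 difference was -0.78 (SE 0.19, adjusted p = 0.0382), and ERBB3-dIE mice held 60.5% of the Erbb3-FF mean TPM.

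Tm7sf2, a sterol reductase that acts next to Cyp51, had 16.9, 28.2 and 44.0 TPM in ERBB3-dIE mice and 29.3, 44.1 and 66.1 TPM in Erbb3-FF mice. It was high in both genotypes among the mice of litter B and in Erbb3-FF mouse 3, and the genotypes overlapped. The log2 difference was -0.75 (SE 0.19, adjusted p = 0.0494). Both calls lay close to the threshold. Msmo1 was no longer called when ERBB3-dIE mouse 2 (adjusted p = 0.0573), 3 (0.0606), 4 (0.0919) or 5 (0.0953) or Erbb3-FF mouse 1 (0.0800), 2 (0.0938) or 6 (0.0660) was left out. Tm7sf2 was no longer called without ERBB3-dIE mouse 2 (adjusted p = 0.0704), 3 (0.0906), 4 (0.109), 5 (0.124) or 6 (0.0729) or Erbb3-FF mouse 1 (0.0800), 2 (0.0947), 4 (0.0787) or 6 (0.0768). Without Erbb3-FF mouse 3 both were called, with adjusted p = 0.0383 for Msmo1 (log2 difference -0.66) and 0.0213 for Tm7sf2 (-0.60).

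**Figure D3:**
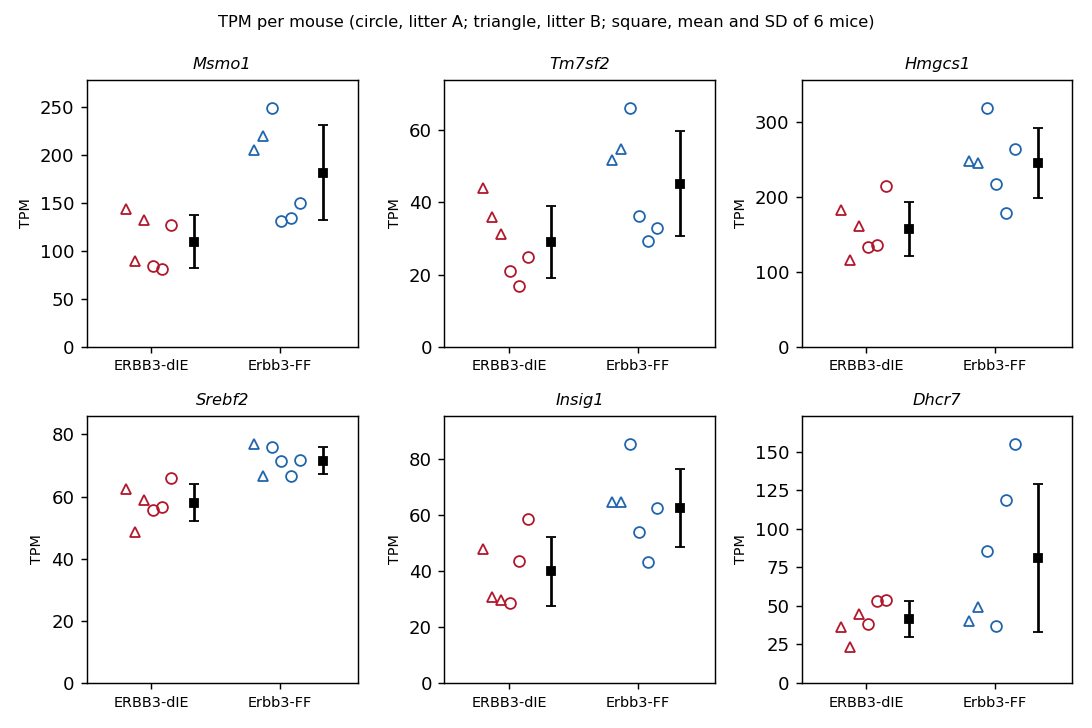
TPM (y axis) of 6 genes in each mouse, ERBB3-dIE left of Erbb3-FF, with circles for litter A and triangles for litter B, and squares with bars for the mean and SD of 6 mice. Srebf2 is the one gene shown whose groups do not overlap, and the highest values of Dhcr7 are those of Erbb3-FF mice 5 and 6 at 119 and 155 TPM.

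The genes that complete removal of the same methyl groups lay beside Msmo1 but outside the threshold. Hsd17b7, a keto-reductase of this step and the scarcest enzyme per length, had 5.18, 8.22 and 13.3 TPM in ERBB3-dIE mice and 12.3, 14.3 and 19.3 TPM in Erbb3-FF mice. Its difference of -0.79 (SE 0.21, adjusted p = 0.0529) was the largest of the 27 in size. Nsdhl, the dehydrogenase of this step, averaged 23.1 ± 3.78 TPM in ERBB3-dIE mice and 32.4 ± 5.82 TPM in Erbb3-FF mice (SD, n = 6 each). Its difference was -0.48 (SE 0.14, adjusted p = 0.0734). Of the ERBB3-dIE mice 5 lay below every Erbb3-FF mouse for each of Nsdhl and Hsd17b7. Cyp51, the demethylase that acts first on lanosterol, had 32.2, 44.6 and 74.8 TPM in ERBB3-dIE mice and 55.4, 77.2 and 99.9 TPM in Erbb3-FF mice, with mouse 6 the only ERBB3-dIE mouse inside the Erbb3-FF range. Its difference was -0.71 (SE 0.20, adjusted p = 0.0689).

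Late steps were uneven. Sc5d, a desaturase that places a double bond in the sterol ring, averaged 57.1 ± 11.3 TPM in ERBB3-dIE mice and 84.7 ± 26.98 TPM in Erbb3-FF mice (SD, n = 6 each), a difference of -0.61 (SE 0.17, adjusted p = 0.0645). Dhcr7, which reduces 7-dehydrocholesterol to cholesterol, had 23.0, 41.2 and 54.0 TPM in ERBB3-dIE mice and 37.0, 67.5 and 155 TPM in Erbb3-FF mice. The highest values, 119 and 155 TPM, were those of Erbb3-FF mice 5 and 6, which are the libraries with 10.2% and 10.8% ribosomal sequence. The Dhcr7 difference was -0.67 (SE 0.31, adjusted p = 0.238), and without Erbb3-FF mice 5 and 6 it was -0.32 (adjusted p = 0.506). With scaling without mitochondrial genes and ribosomal sequence it was -0.70 (adjusted p = 0.225). The part of ribosomal sequence in the Dhcr7 values was not tested. Ebp, the isomerase that moves a double bond in the ring, was the enzyme with no negative difference, with lowest, median and highest values of 97.4, 111 and 142 TPM in ERBB3-dIE animals and 98.0, 107 and 130 TPM in Erbb3-FF mice. Its interval ran from -0.22 to 0.27 around 0.02.

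Of the 5 regulators 0 passed the adjusted threshold, against 3.70% of all tested genes lower and 1.66% higher. Srebf2 alone separated the genotypes. Srebf2, the precursor of SREBP-2, had 48.7, 57.8 and 66.0 TPM in ERBB3-dIE mice and 66.5, 71.7 and 76.8 TPM in Erbb3-FF mice. It was the only one of the 27 genes whose groups did not overlap, against 1.43% of all tested genes with every ERBB3-dIE mouse below every Erbb3-FF mouse and 1.02% with every one above. The gap between the groups was under 1 TPM, and the log2 difference of -0.30 (SE 0.08) had an adjusted p of 0.0657. Srebf1, the precursor of the SREBP-1 forms, had 17.2, 21.3 and 28.9 TPM in ERBB3-dIE mice and 17.8, 19.1 and 29.4 TPM in Erbb3-FF mice, a difference of 0.03 with an interval of -0.33 to 0.40. Scap, the escort of SREBP, had 10.7, 11.98 and 22.5 TPM in ERBB3-dIE mice and 9.15, 11.1 and 12.9 TPM in Erbb3-FF mice. Its highest value was that of ERBB3-dIE mouse 5, and the interval ran from -0.06 to 0.63.

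The INSIG genes had negative differences. Insig1, a retention factor that SREBP itself induces, had 28.7, 37.0 and 58.5 TPM in ERBB3-dIE mice and 43.2, 63.5 and 85.1 TPM in Erbb3-FF mice. All ERBB3-dIE mice lay below the Erbb3-FF median, and 3 lay below the lowest Erbb3-FF mouse. The difference was -0.65 (SE 0.21, adjusted p = 0.0994). Insig2, its relative, had 42.4, 67.5 and 106 TPM in ERBB3-dIE mice and 41.3, 88.7 and 133 TPM in Erbb3-FF mice, and the groups overlapped widely. Its difference was -0.56 (SE 0.25, adjusted p = 0.214). Stard4, a carrier of cholesterol between membranes inside the cell, averaged 69.1 ± 13.8 TPM in ERBB3-dIE mice and 77.6 ± 10.7 TPM in Erbb3-FF mice (SD, n = 6 each). It differed by -0.22 (SE 0.13, adjusted p = 0.357).

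Of the 3 fatty acid genes, 2 had positive differences and 1 a negative one, against 50.1% of all tested genes negative. The adjusted threshold was passed by 0 of 3, against 3.70% of all tested genes lower and 1.66% higher. Fasn, fatty acid synthase, had 21.9, 37.7 and 47.0 TPM in ERBB3-dIE mice and 36.5, 40.0 and 52.8 TPM in Erbb3-FF mice, a difference of -0.19 (SE 0.17, adjusted p = 0.569). Fads1, a desaturase of long polyunsaturated fatty acids and the scarcest of the 27 genes per length, had 2.97, 7.20 and 13.7 TPM in ERBB3-dIE mice and 2.89, 5.12 and 7.59 TPM in Erbb3-FF mice. Its difference was 0.49 with an interval of -0.11 to 1.09. Fads2, the desaturase that opens that route, averaged 53.0 ± 12.3 TPM in ERBB3-dIE mice and 46.5 ± 7.13 TPM in Erbb3-FF mice (SD, n = 6 each), a difference of 0.22 with an interval of -0.08 to 0.53. Whether these 3 genes differ as a group from the enzymes was not tested.

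Most synthesis enzymes kept the direction of the genotype difference within each litter. The difference was negative in both litters in 20 of the 27 genes, 16 of them synthesis enzymes, against 31.8% of all tested genes. In litter A the median over the 18 enzymes was -0.52, with 18 negative, and without Erbb3-FF mouse 3 it was -0.35, with 17 negative. In litter B it was -0.52, with 16 negative. Over all tested genes the medians were 0.08 in litter A and -0.10 in litter B. Within 1 litter 0 members passed the adjusted threshold. Of all tested genes only 0.0159% were called lower in litter A and 0.0714% in litter B. The count of 0 is therefore not read as a result about the members.

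The genotype difference itself was not shown to depend on litter for any member. In the model with an interaction, 0 of 27 genes passed the adjusted threshold, against 0% of all tested genes, and 2 had an unadjusted p under 0.05, against 9.31%. These were Fasn and Fads1, a share of the members no larger than that of all tested genes. In litter A, Fasn averaged 45.2 ± 1.77 TPM in ERBB3-dIE mice (n = 3) and 39.7 ± 2.85 TPM in Erbb3-FF mice (n = 4). In litter B it averaged 26.7 ± 5.03 TPM in ERBB3-dIE mice (n = 3) and 44.7 ± 11.5 TPM in Erbb3-FF mice (n = 2). The interaction, litter B less litter A, was -0.92 (SE 0.24), with an unadjusted limma p of 0.0029 and an adjusted p of 0.247. For Fads1 that value was -1.16 (SE 0.46), with an adjusted p of 0.462. Without Erbb3-FF mouse 3 the adjusted p was 0.209 for Fasn and 0.408 for Fads1. Within litter A, ERBB3-dIE mice had 11.0 ± 2.37 TPM of Fads1 (n = 3) and Erbb3-FF mice 5.62 ± 1.97 TPM (n = 4).

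**Figure D4:**
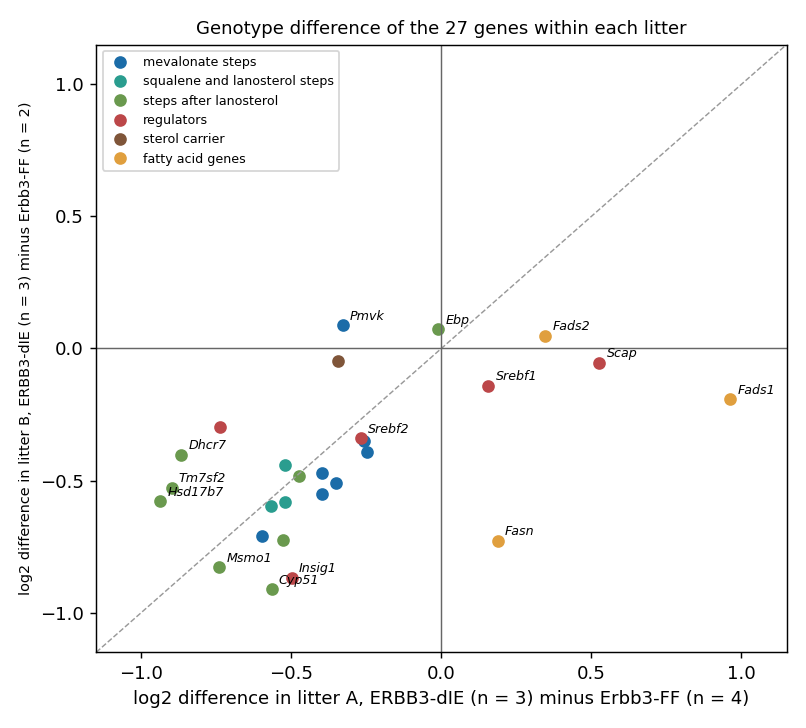
Log2 difference, ERBB3-dIE minus Erbb3-FF, of each of the 27 genes in litter A (x axis) and in litter B (y axis), coloured by role, with the line of equal values dashed. The 20 genes left of 0 and under 0 were negative in both litters, while Fasn, Fads1, Scap and Srebf1 lie under 0 and right of 0.

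Litter was tested in the same fit as genotype. With all libraries 0 of 27 genes were called for litter in either direction, against 7.16% of all tested genes higher in litter B and 1.40% lower, and 7 had an unadjusted p under 0.05, against 29.4%. The median log2 difference of litter B minus litter A was 0.01 over the enzymes and 0.05 over all tested genes. Without Erbb3-FF mouse 3, 4 of 27 genes were called higher in litter B (14.8%, against 15.7% of all tested genes) and 2 lower (7.41%, against 8.54%), shares no larger than those of all genes. The 4 were Tm7sf2 (0.76, adjusted p = 0.00216), Sc5d, Insig2 and Pmvk, and the 2 were Fads1 (-1.06, adjusted p = 0.00601) and Fads2. The median litter difference of the enzymes was then 0.08, beside 0.04 over all tested genes.

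Other genes of the pathway were counted from lists of named genes. Of 19 further sterol synthesis and SREBP genes, which include Scd1, Scd2, Acly, Acss2, Acaca, Elovl6, Mbtps1 and Lbr, 1 fell (5.26%, against 3.70% of all tested genes) and 0 rose, 7 were lower at an unadjusted p under 0.05 (36.8%, against 13.1%), and the median difference was -0.26. The share that fell is near that of all genes. Of 11 tested genes of LXR signalling and sterol transport, 2 fell (18.2%, against 3.70%) and 0 rose. Lpcat3, a phospholipid remodelling enzyme and LXR target, averaged 86.5 ± 18.9 TPM in ERBB3-dIE mice and 144 ± 39.1 TPM in Erbb3-FF mice (SD, n = 6 each), a difference of -0.79 (SE 0.16, adjusted p = 0.0180). Npc1l1, the transporter that takes up dietary and biliary cholesterol in enterocytes, averaged 95.4 ± 43.8 TPM in ERBB3-dIE mice and 164 ± 45.2 TPM in Erbb3-FF mice (SD, n = 6 each). It differed by -0.99 (SE 0.25, adjusted p = 0.0411), and without Erbb3-FF mouse 3 its adjusted p was 0.0526. Of 12 tested clock genes, counted because sterol synthesis follows the time of day, Npas2 fell (-0.65, SE 0.13, adjusted p = 0.0183) and Nfil3 rose (0.74, SE 0.14, adjusted p = 0.0132), which is 1 gene in each direction (8.33%), against 3.70% of all tested genes lower and 1.66% higher. The hour of sampling is not given in the labels, and its part in the result was not tested.

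Cell type markers moved with genotype and with litter. All 6 epithelial and ileal markers had negative differences, with a median of -0.56, beside -0.52 for the 18 synthesis enzymes, and 3 of 6 (50.0%) fell, against 3.70% of all tested genes. Cdh17, a cadherin of intestinal epithelium, averaged 331 ± 29.5 TPM in ERBB3-dIE mice and 477 ± 45.0 TPM in Erbb3-FF mice (SD, n = 6 each), a difference of -0.52 (SE 0.09, adjusted p = 0.0109). Krt20, a keratin of differentiated intestinal epithelium, differed by -0.59 (SE 0.11, adjusted p = 0.0138), and Slc10a2, the ileal bile acid transporter, by -1.18 (SE 0.21, adjusted p = 0.0119). For these 3 genes every ERBB3-dIE mouse lay below every Erbb3-FF mouse. Epcam (-0.38, adjusted p = 0.0813), Vil1 (-0.53, adjusted p = 0.0573) and Fabp6 (-0.73, adjusted p = 0.298) did not pass. Of 11 tested villus enterocyte markers 7 fell (63.6%), among them Alpi, Apoa1 and Fabp2, and 0 rose, with a median difference of -1.22 and a summed level of 4516 to 18924 TPM in ERBB3-dIE mice and 10420 to 26102 TPM in Erbb3-FF mice. Of these 11 markers 8 were called higher in litter B, against 7.16% of all tested genes. Without Erbb3-FF mouse 3 all 11 were, against 15.7%. Of 7 goblet cell markers 3 rose (Muc2, Spdef and Agr2), against 1.66% of all tested genes, and 0 fell. Without Erbb3-FF mouse 3, 6 were called higher. The sums were 22324 to 62025 TPM in ERBB3-dIE mice and 15177 to 28481 TPM in Erbb3-FF mice. Among ERBB3-dIE mice they were 22324 to 23276 TPM in litter A and 41636 to 62025 TPM in litter B. For litter, 4 of 7 goblet markers were called higher in litter B, against 7.16% of all tested genes. Of the cycling cell markers 1 of 7 was called lower in litter B, against 1.40%. Without Erbb3-FF mouse 3, 7 of 7 were, against 8.54%. Cycling cell markers (7 tested), smooth muscle (6), stroma (5), macrophage (6) and B cell markers (2) had 0 calls for genotype in the fit over both litters. Adipocyte markers had 1 of 4, Cidec, lower. In litter A the median genotype difference was 1.26 for smooth muscle, 1.26 for stroma and 0.85 for macrophage markers. In litter B it was -1.33, -1.31 and -0.86. The unadjusted limma interaction p was under 0.05 in 2 of 6, 5 of 5 and 6 of 6, against 9.31% of all tested genes. After adjustment 0 passed. Without Erbb3-FF mouse 3 the interaction passed for Cd79a (adjusted p = 0.0317), Cd79b (0.0327) and 1 macrophage marker. No marker of these lists was at 0 in every library, but only 2 of 9 B cell, 4 of 8 adipocyte and 6 of 9 smooth muscle markers were abundant enough to be tested. B cell markers summed to 6.05 to 17.8 TPM in ERBB3-dIE mice and 4.78 to 329 TPM in Erbb3-FF mice, with the high values in Erbb3-FF mice 1, 2 and 3. Adipocyte markers summed to 32.1 to 58.2 TPM in ERBB3-dIE mice and 51.3 to 157 TPM in Erbb3-FF mice. Lipe and Cidec had the largest means of that list, 24.8 and 11.0 TPM in ERBB3-dIE mice and 27.3 and 30.9 TPM in Erbb3-FF mice. Adipoq averaged 0.41 and 1.57 TPM and was too scarce to be tested, so whether adipocyte content differed was not tested. The part of these cell types in the results for the sterol genes was not tested beyond the values that follow.

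The villus list was lower in ERBB3-dIE mice within each litter, as most of the enzymes were. The mean log2(TPM + 0.5) of the villus list was 8.76, 8.57, 8.05, 6.63, 6.46 and 7.28 in ERBB3-dIE mice 1 to 6, against 9.28, 9.12, 9.41, 8.05, 7.91 and 8.23 in Erbb3-FF mice 1 to 6. In litter B the villus values of ERBB3-dIE mice 1, 2 and 3 lay below those of Erbb3-FF mice 1 and 2, and in litter A those of ERBB3-dIE mice 4, 5 and 6 lay below those of Erbb3-FF mice 3 to 6. This held for mice 2, 4 and 5, which had the lowest enzymes, and for the other ERBB3-dIE mice. The part of villus content in the enzyme levels was not tested. Among ERBB3-dIE mice, mouse 2 had the lowest summed level of the 18 enzymes (809.7 TPM) and a villus value of 8.57. Mouse 6 had the highest summed level (1268 TPM) and a villus value of 7.28, while mice 4 and 5 were low in both. With the villus list as a covariate, which itself differed by genotype, the median difference of the 27 genes was -0.10, 12 of the 18 enzymes were negative and 0 of 27 genes were called, against 0.0635% of all tested genes called lower in that fit. With the smooth muscle list as a covariate the median was -0.42 and 5 genes were called lower, against 4.32% of all tested genes. Without ERBB3-dIE mice 4 and 5 the median was -0.31 and 0 were called, and without Erbb3-FF mice 5 and 6 it was -0.50 and 1 was called.

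**Figure D5:**
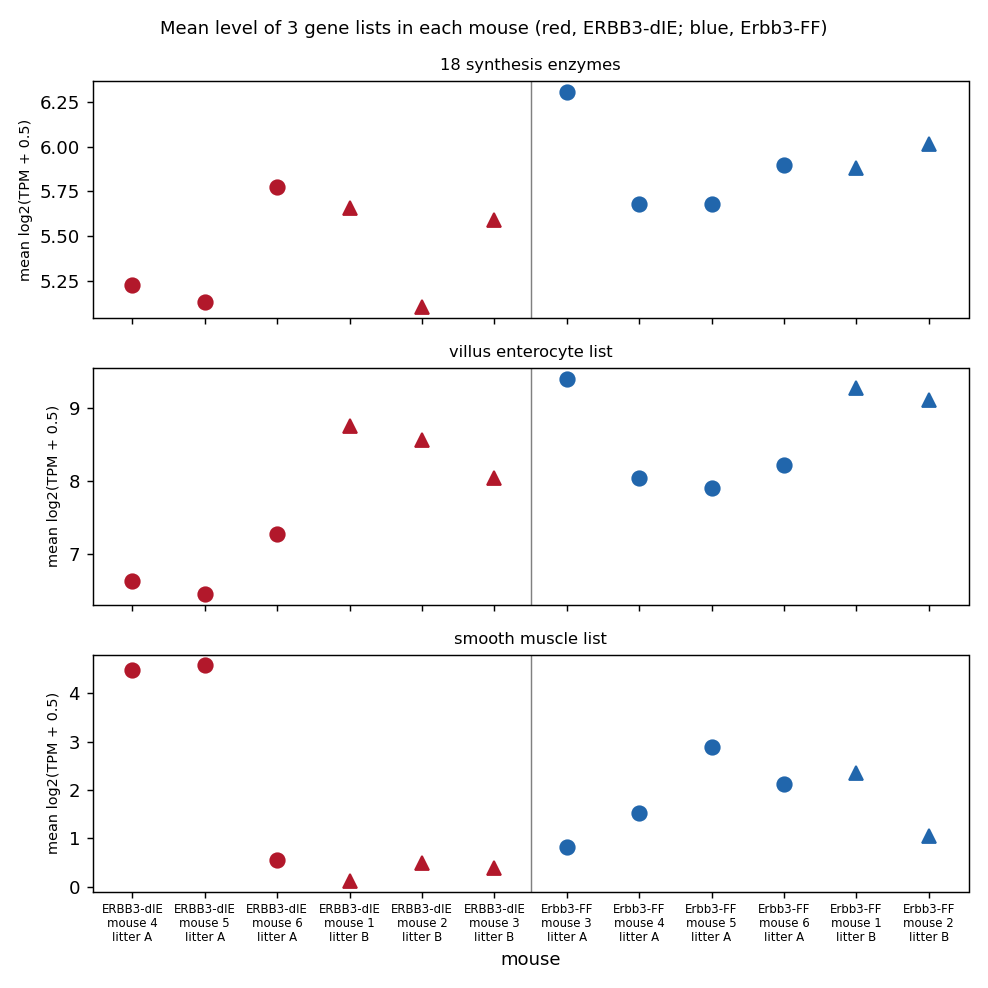
Mean log2(TPM + 0.5) in each mouse (x axis, ERBB3-dIE in red left of Erbb3-FF in blue, circles for litter A and triangles for litter B) of the 18 synthesis enzymes, the villus enterocyte list and the smooth muscle list. Within each litter every ERBB3-dIE mouse is below every Erbb3-FF mouse in the villus list, and ERBB3-dIE mice 4 and 5 are highest in smooth muscle.

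The authors' deposited table, made with DESeq2, called more of these genes. Of the 27 genes, 13 in the authors' deposited table were lower in ERBB3-dIE at an adjusted p under 0.05 (48.1%), against 7.51% of the 15490 genes with an adjusted p, and 0 were higher, against 5.07%. Both Msmo1 and Tm7sf2 were among them, and the other 11 were Hmgcs1, Idi1, Fdft1, Sqle, Cyp51, Nsdhl, Hsd17b7, Sc5d, Dhcr7, Srebf2 and Insig1. The largest of these log2 fold changes in the authors' deposited table was that of Dhcr7 (-0.95, adjusted p = 0.0279), the gene with high values in Erbb3-FF mice 5 and 6. For Msmo1 the authors' deposited table gave -0.70 (adjusted p = 0.000108) and for Tm7sf2 -0.63 (adjusted p = 0.000342). The median over the 27 genes was -0.43 in the authors' deposited table, beside -0.46 fitted here on TPM. Single genes could lie further apart. The fit on TPM gave -0.67 for Dhcr7, -0.78 for Msmo1 and -0.75 for Tm7sf2.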

How the data were processed

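The authors deposited 1 table of TPM per gene and library, whose values sum to 1000000 in each library. Salmon 1.10.0 with build GRCm39, CASAVA and DESeq2 are named, per the submitters' processing notes, and the annotation release is not given in the sources used here. Per the labels' protocols, reads of 75 bases came from a stranded mRNA kit, and per the file headers the table also holds the authors' mean normalized count (a signal over all libraries), log2 fold change with its error, test score, p-value and adjusted p-value. Depth per library is unknown, and TPM of a gene falls when abundant genes rise. How reads shared between near-identical gene copies were split could not be examined.

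No count model was fitted to TPM. Genes that reached 1 TPM in 6 or more libraries were tested as log2(TPM + 0.5) with limma 3.58.1 (R 4.3.3, lmFit and eBayes with trend), with litter and genotype as terms over 12 libraries and Benjamini-Hochberg adjustment over 12605 genes at 0.05. The interaction was tested in a second model. Differences use the log2(TPM + 0.5) scale, which understates changes of low genes, SE is limma's moderated error, and intervals are 95%. Each library is 1 mouse. The p-values set a difference against the spread between these mice, as moderated by limma over all tested genes. Correlations between libraries ran from 0.878 to 0.955, so none was a copy. The steps were tested on simulated data of 12605 genes, where a genotype change of 1 (log2) was recovered in 70.8% of altered genes and a change of 0.5 in 27.6%.

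The 27 genes, the other lists and the markers were chosen with earlier results of these data known. By rule all 27 genes were described, with the lowest, median and highest values for the called genes and regulators, and genes of the other lists were named where called. The value of 1 further gene called lower is not reported here. Mouse numbers that both genotypes share were not used as pairs in the main fit. The deviations of same-numbered mice correlated at 0.152, 0.0739, 0.114, 0.357, 0.240 and 0.167, and number 3 joins mice labelled with different litters. These values do not settle whether the numbers mark pairs. Alternatives covered pseudocount, filter, scaling, variance, weights, dropping the litter term, blocking on mouse number, fitting litters apart, leaving out libraries in turn, 3 covariates and the authors' test. Fits without pairs of libraries that stood apart, and in litter A without Erbb3-FF mouse 3, were added after the data were seen. RefSeq promoters (GRCm38.p6) were matched by symbol. Figures were drawn with matplotlib 3.10.9 (Python 3.11.15).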

Additional observations from a re-analysis of the deposited data

Results flagged for a closer look

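In groups of 6 mice, 4 of the 54 groups examined (27 genes in each genotype) held a mouse far from its nearest neighbour, and chance flags about 1 in 20 groups. Cyp51 was high in ERBB3-dIE mouse 6 (74.8 TPM, next 47.6 TPM). Scap was high in ERBB3-dIE mouse 5 (22.5 TPM, next 14.1 TPM), which also held the most smooth muscle transcript. Mvd was high in Erbb3-FF mouse 3 (46.0 TPM, next 32.5 TPM), the library labelled litter A that lay with litter B. Fasn was high in Erbb3-FF mouse 1 (52.8 TPM, next 42.1 TPM).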

How the results depend on the processing

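The count of 2 members called lower changed under many settings, while 0 were called higher and 0 for the interaction under every setting run. The share of all tested genes called lower, 3.70% with 2 members, moved too and is given in parentheses. The count was 1 with a pseudocount of 0.1 (3.64%), 0 with no filter on low values (0.881%), 4 with a filter at 5 TPM (5.35%), 5 with median-of-ratios scaling (4.20%), 11 with scaling without mitochondrial and ribosomal sequence (6.62%), 6 with library weights (5.84%), 0 with no litter term (1.24%), 0 in litter A (0.0159%), 0 in litter B (0.0714%), 0 in litter A without Erbb3-FF mouse 3 (0.167%), 5 with a smooth muscle covariate (4.32%), 0 with a villus covariate (0.0635%), 0 with a B cell covariate (0.301%), 1 without Erbb3-FF mice 5 and 6 (2.92%), 0 without ERBB3-dIE mice 4 and 5 (0.516%), and 13 in the authors' deposited table (7.51%). With each library left out it was 0 to 5 (1.51% to 4.93%), and the median difference was -0.56 to -0.36. The cause was not tested. With mouse number as a replicate block in place of litter, 9 members were called lower (4.27%). Whether the numbers pair the mice is not known (4 of 12 libraries correlated best with their own number). For litter, 4 members were called with library weights and 0 to 6 with each library left out. Without Erbb3-FF mouse 3 the shares of members were 14.8% higher and 7.41% lower in litter B. All tested genes then had shares of 15.7% and 8.54%. The share of all tested genes is not given for the other settings, so these litter counts are not read as a result about the members.

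With the villus covariate the median difference was -0.10 and signs turned for Mvk (0.10), Pmvk (0.34), Mvd (0.0765), Lss (0.0039), Tm7sf2 (0.0468), Scap (-0.13), Insig2 (0.24), Stard4 (0.25), Fads1 (-0.52) and Fads2 (-0.10), and for the litter difference of Pmvk (-0.16), Tm7sf2 (-0.16), Sc5d (-0.0464), Insig2 (-0.11) and Fads1 (0.11). In litter A, Ebp (-0.0112) and Fasn (0.19, and 0.15 without Erbb3-FF mouse 3) turned. In litter B, Pmvk (0.0872), Srebf1 (-0.14), Scap (-0.0541) and Fads1 (-0.19) turned. Ebp was -0.000751 with scaling without mitochondrial and ribosomal sequence and -0.0261 without Erbb3-FF mice 5 and 6, and Pmvk was 0.0484 without ERBB3-dIE mice 4 and 5. With each library left out, Ebp ran from -0.0371 to 0.0793 and Srebf1 from -0.0717 to 0.17. Depth per library is unknown in TPM, so no counting error can be given.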
